A study of Homo sapiens with 9 samples.

Results

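The genes described here encode the proteins of the cytosolic ribosome, named RPL for the large subunit and RPS for the small one. A gene was taken where a probe set of the array carried exactly 1 gene symbol made of RPL or RPS, digits and at most a final A or X, or was RPLP0, RPLP1, RPLP2 or RPSA. This gave 89 of the 22215 probe sets tested and 51 of the 11963 genes, 31 of the large and 20 of the small subunit. For a gene with several such probe sets, the brightest on average over the 9 arrays stands for it. RefSeq holds 77 protein-coding genes that fit the naming rule. For 16 of these the only named probe sets carry several symbols, RPL5, RPL23 and RPS3A among them, and 10 more, RPLP0 and RPSA among them, were not analysed here.

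All arrays measured RNA from U251 cells (U251MG in the labels), a long-established line from a human glioma, with 3 cultures in each of 3 groups. All cultures were kept on a rocker for 4 h after transfection. The first group received an siRNA against WT1 at 100 nM with the transfection reagent Oligofectamine. The second received a scrambled, non-targeting siRNA at 100 nM with the same reagent, and the third the reagent alone. WT1 is a transcription factor with zinc fingers, named after Wilms tumour of the kidney, and the series asks which genes it controls in glioma. The cultures are 1 cell line throughout. Numbers 1 to 3 in the titles name the replicates, and every group holds each number.

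A ribosome joins a small subunit, which reads the messenger RNA, to a large subunit, which forms peptide bonds and passes the new chain through an exit tunnel. Most of the proteins are needed in equal amounts, and free RPL11 and RPL5 bind the p53 regulator MDM2 when assembly stalls. In vertebrates the messenger RNAs of ribosomal proteins begin with a cytosine and a run of pyrimidines, the terminal oligopyrimidine (TOP) motif. Through this motif the kinase mTOR and the RNA-binding protein LARP1 control their translation as a class. An array measures the RNA level and not its translation.

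The start of the transcript is what these genes are known to share, and the RefSeq promoter table (GRCh38.p14) held an entry for 45 of the 51 genes. Where it held several for a gene (6 of the 45), the one listed first was used. The windows of 30 bases below run from 10 bases before to 20 bases after the annotated start, with the pyrimidine run at the start in capitals. The first set is shown because these genes have the motif at the annotated base and turn up in the results that follow.
RPS9 (chr19:54200848-54200877, plus strand): gcttccgcgcCTCTTTCTCagtgaccgggt
RPL36 (chr19:5690285-5690314, plus strand): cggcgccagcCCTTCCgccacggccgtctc
RPL35A (chr3:197950180-197950209, plus strand): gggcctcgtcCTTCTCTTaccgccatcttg
RPL14 (chr3:40457329-40457358, plus strand): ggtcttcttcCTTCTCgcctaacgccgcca
RPL29 (chr3:51995876-51995905, minus strand): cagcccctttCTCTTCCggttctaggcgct
RPL35 (chr9:124861938-124861967, minus strand): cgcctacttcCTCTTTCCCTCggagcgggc
RPL27A (chr11:8682782-8682811, plus strand): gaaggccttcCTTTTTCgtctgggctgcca
RPLP1 (chr15:69452808-69452837, plus strand): ggcgcgagagCCCCTTTCCTCagctgccgc
RPL39 (chrX:119791611-119791640, minus strand): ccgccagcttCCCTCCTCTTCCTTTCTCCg
RPS24 (chr10:78033853-78033882, plus strand): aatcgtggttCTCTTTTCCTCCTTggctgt

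The next set is shown because these genes also appear below and their annotated start does not open with the motif, so no letter is capitalised.
RPL11 (chr1:23691769-23691798, plus strand): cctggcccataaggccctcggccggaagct
RPL19 (chr17:39200273-39200302, plus strand): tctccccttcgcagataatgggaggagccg
RPL9 (chr4:39458903-39458932, minus strand): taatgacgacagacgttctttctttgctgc
RPL6 (chr12:112411423-112411452, minus strand): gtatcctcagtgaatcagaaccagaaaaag
RPS29 (chr14:49598691-49598720, minus strand): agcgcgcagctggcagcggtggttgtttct

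A start of C followed by at least 4 pyrimidines, read on the gene's own strand, was found at the annotated base of 32 of the 45 genes (71.1%). The share was 4.94% among the 9563 genes of the array with a promoter entry and 6.67% among 45 genes of the mitochondrial ribosome. With 5 bases of tolerance to either side, 39 of the 45 (86.7%) had such a run, against 22.3% of all genes. RPL11 and RPL19 fall in that wider group, while RPL9, RPL6 and RPS29 do not. The run at the start was 5 to 19 bases long with a median of 8, and RPL39 had the longest. The letters GCGTGGGNG, a core bound by WT1 and by the related EGR factors, were looked for on both strands of the 300 bases around each start. They occurred in 1 of the 45 genes, RPS24 (2.22%), and in 3.59% of all genes. The narrower form GCGTGGGAG, which the first pattern includes, occurred in 0 of the 45 and in 0.92% of all genes. These are matches of letters in 1 window and describe no binding.

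The targeted gene was checked first. The brighter of the WT1 probe sets read 4.76, 5.09 and 4.82 on the log2 scale with the WT1 siRNA, 5.59, 5.89 and 5.41 with the scrambled siRNA and 6.05, 6.58 and 5.89 with the reagent alone. WT1 was lower with its siRNA than in either control group on every array, by 0.74 against the scrambled siRNA (adjusted p = 0.00336) and by 1.29 against the reagent (adjusted p = 0.000619). These and the following p-values are from limma in a fit that compares the groups within replicate numbers, with Benjamini-Hochberg adjustment over all 22215 probe sets, and a gene is said to be called where the adjusted p is under 0.05. WT1 was also called as lower with the scrambled siRNA than with the reagent, by 0.55 (adjusted p = 0.0164), and these groups did not overlap. That call held in 5 of 12 fits with an array or number left out. Without the replicate number in the fit, WT1 was called in none of the 3 comparisons (adjusted p of 0.672, 0.394 and 1.00). The dimmer WT1 probe set read 4.83 to 5.06, 4.94 to 5.40 and 5.00 to 5.21 in the same group order and was not called. Of the glioma markers, VIM averaged 13.7 and CD44 13.1, while the astrocyte genes GFAP (6.95) and S100B (4.83) were near or below the median level of 6.48. Defining markers of leukocytes (PTPRC, 4.56), endothelium (CDH5, 4.35) and epithelium (EPCAM, 4.29) were below that median too, whereas KRT18 (10.3) and NEFL (11.8) were not. Of the 16 markers of other cell types measured, KRT18 was called between groups, lower with the WT1 siRNA than with the scrambled siRNA (-0.44, adjusted p = 0.0319), and its part in other results was not tested. In bulk RNA, fewer cells with a transcript and less of it per cell cannot be told apart.

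On the probe sets used, which the rule chose for their brightness, the ribosomal protein genes gave high and steady signals. Of the 51, 49 had a mean log2 level of 11.8 to 13.7 (median 13.1) and were brighter than at least 97.5% of all probe sets on every array. The highest value of any probe set was 14.1, so the room above these genes on the scale is narrow. The other 2, RPLP2 (4.88) and RPL27A (6.11), lay under the median level of all probe sets, and each had only 1 probe set with a single symbol. RPLP2 and RPLP1 encode acidic proteins of the stalk that recruits translation factors, and the probe set of RPLP1 averaged 13.5. The other 38 probe sets of these genes had means of 4.03 to 13.3, and 12 of all 89 lay under the median level. Since probe sets differ in efficiency, levels of different genes are not ranked here.

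**Figure D1:**
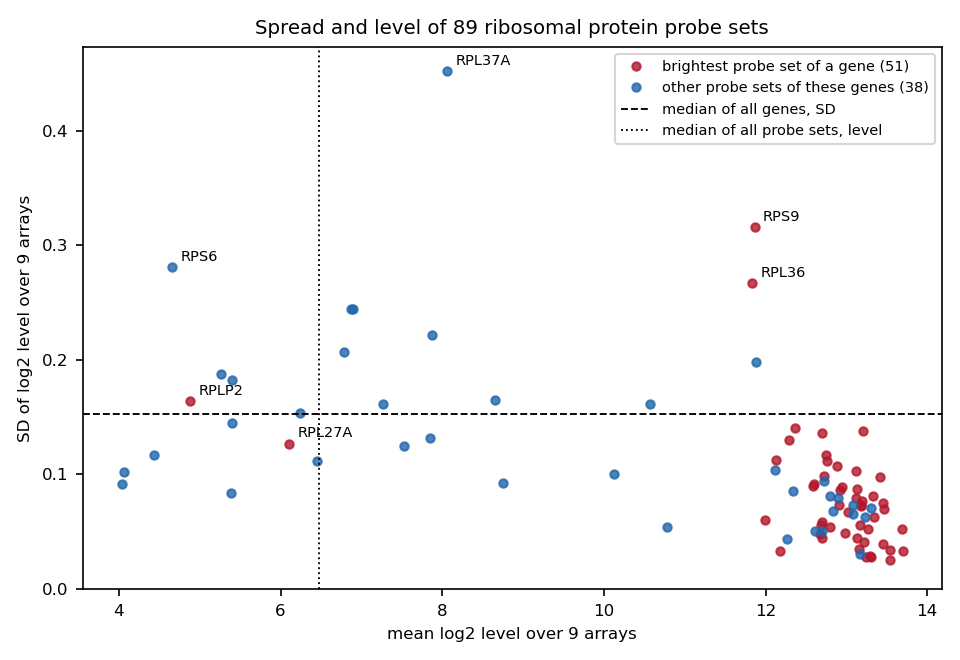
Standard deviation over 9 arrays (y axis, log2 units) against mean log2 level (x axis) for the 89 probe sets of ribosomal protein genes, red for the brightest probe set of each of 51 genes and blue for the other 38. Dashed and dotted lines mark the median SD of all genes (0.152) and the median level of all probe sets (6.48). Most red points sit at the lower right, bright and steady, and RPS9 and RPL36 stand above them.

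The standard deviation of a gene over all 9 arrays had a median of 0.0730 log2 units for the ribosomal protein genes and 0.152 for all genes. Only 9.05% of all genes had a smaller SD than the median ribosomal protein gene. All genes include dim ones, and no comparison with genes of equal brightness was made. RPLP1 varied least, with an SD of 0.0256 and values of 13.57, 13.54 and 13.58 with the WT1 siRNA, 13.52, 13.50 and 13.56 with the scrambled siRNA and 13.53, 13.53 and 13.55 with the reagent. Next came RPS6 (0.0279), the target of the S6 kinases, RPS14 (0.0280), RPL7 (0.0293) and RPL34 (0.0333). RPS9 (0.316), RPL36 (0.267), RPLP2 (0.164), RPL35A (0.141) and RPL19 (0.138) varied most. Among the 89 probe sets, the 12 below the median level had a median SD of 0.136 and the 77 above it 0.0765. Of the sum of squares over the 51 genes, 77.6% lay between replicate numbers, 12.4% between groups and 10.1% in the remainder. Over all probe sets these shares were 71.4%, 15.6% and 13.0%. Genes of great SD weigh most in such sums, among the 51 RPS9 and RPL36, so the shares do not describe the typical gene.

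The main comparison, of WT1 siRNA with scrambled siRNA, asked whether lowering WT1 moved the transcripts of the ribosome. None of the 51 genes was called by limma in either direction, where 3.27% of all probe sets were called, 1.33% as higher and 1.94% as lower. At an unadjusted p under 0.05, 2 of the 51 passed, RPL27A and RPL11, and the smallest adjusted p was 0.171. None of the 89 probe sets was called either (smallest adjusted p 0.0580, for a dimmer probe set of RPL31). Differences ran from -0.18 for RPL27A to 0.11 for RPS9. Taking the 95% intervals of all 51 genes, the lowest bound was 80.5% of the scrambled level and the highest 119%, so changes beyond those limits lie outside every interval. The standard error of a ribosomal protein gene had a median of 0.056, against 0.071 for all genes. Because limma draws the spread of each gene toward that of all probe sets, the smallest was 0.0542 among the 51 and 0.0539 among all genes. The intervals of the steadiest genes are thus not those of their own arrays alone.

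The small differences leaned one way. Of the 51 genes, 46 had a value below 0, against 50.6% of all genes, and the median was -0.044 against -0.002 for all genes. Within numbers 1, 2 and 3 the medians were -0.081, -0.037 and -0.012, against -0.025, -0.007 and 0.015 for all genes, and 47, 41 and 30 genes lay below 0. Within every number, 26 genes were lower and 2 higher, against 20.1% and 16.4% of all genes. The large subunit had a median of -0.052, with 29 of 31 genes below 0 and 21 lower within every number. The small subunit had a median of -0.034, with 17 of 20 below 0 and 5 lower within every number. Genes on 1 array share its hybridisation and normalisation, so the counts are a description and not a test over independent values.

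RPL11, which forms a particle with RPL5 and the 5S ribosomal RNA, was the brightly measured gene with the smallest p. It read 12.69, 12.69 and 12.50 with the WT1 siRNA, against 12.77, 12.82 and 12.71 with the scrambled siRNA. The 3 arrays with the WT1 siRNA lay below all 3 with the scrambled siRNA, by 0.079, 0.125 and 0.209 within numbers 1, 2 and 3. The means were 12.63 ± 0.11 and 12.77 ± 0.05 (SD, n = 3 each), a difference of -0.14 (SE 0.057, 95% interval -0.266 to -0.009, adjusted p = 0.269), or 90.9% of the scrambled level. When the prior variance in limma was allowed to follow the intensity, RPL11 was called as lower (adjusted p = 0.0386), and no other of the 51 genes was. Over all the alternatives tried, its adjusted p ran from 0.0386 to 1.00.

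RPL27A, a large-subunit protein measured here by a dim probe set, read 6.12, 6.04 and 5.97 with the WT1 siRNA, against 6.37, 6.12 and 6.18 with the scrambled siRNA. The groups barely missed each other at 6.12, and the difference was -0.18 (SE 0.060, adjusted p = 0.171). RPL6, of the large subunit, read 13.03, 13.12 and 13.15 against 13.18, 13.26 and 13.21, a difference of -0.12 (adjusted p = 0.379). RPS29, a zinc-binding protein of the small subunit, read 12.67, 12.59 and 12.64 against 12.79, 12.72 and 12.72, a difference of -0.11 (adjusted p = 0.392). With RPL39, which lines the exit tunnel, these 5 genes were the ones whose 3 arrays all lay below the scrambled group. RPS12, of the small subunit, was the only 1 wholly above it, at 13.16, 13.14 and 13.15 against 13.12, 13.04 and 13.12. Non-overlap in either direction thus held for 6 of 51 genes, against 6.96% of all genes. The remaining members among the 10 with the smallest p were RPL14, RPL36, RPS9, RPS15, RPS7 and RPL29, with differences of -0.12 to 0.11 and adjusted p of 0.373 to 0.436.

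**Figure D2:**
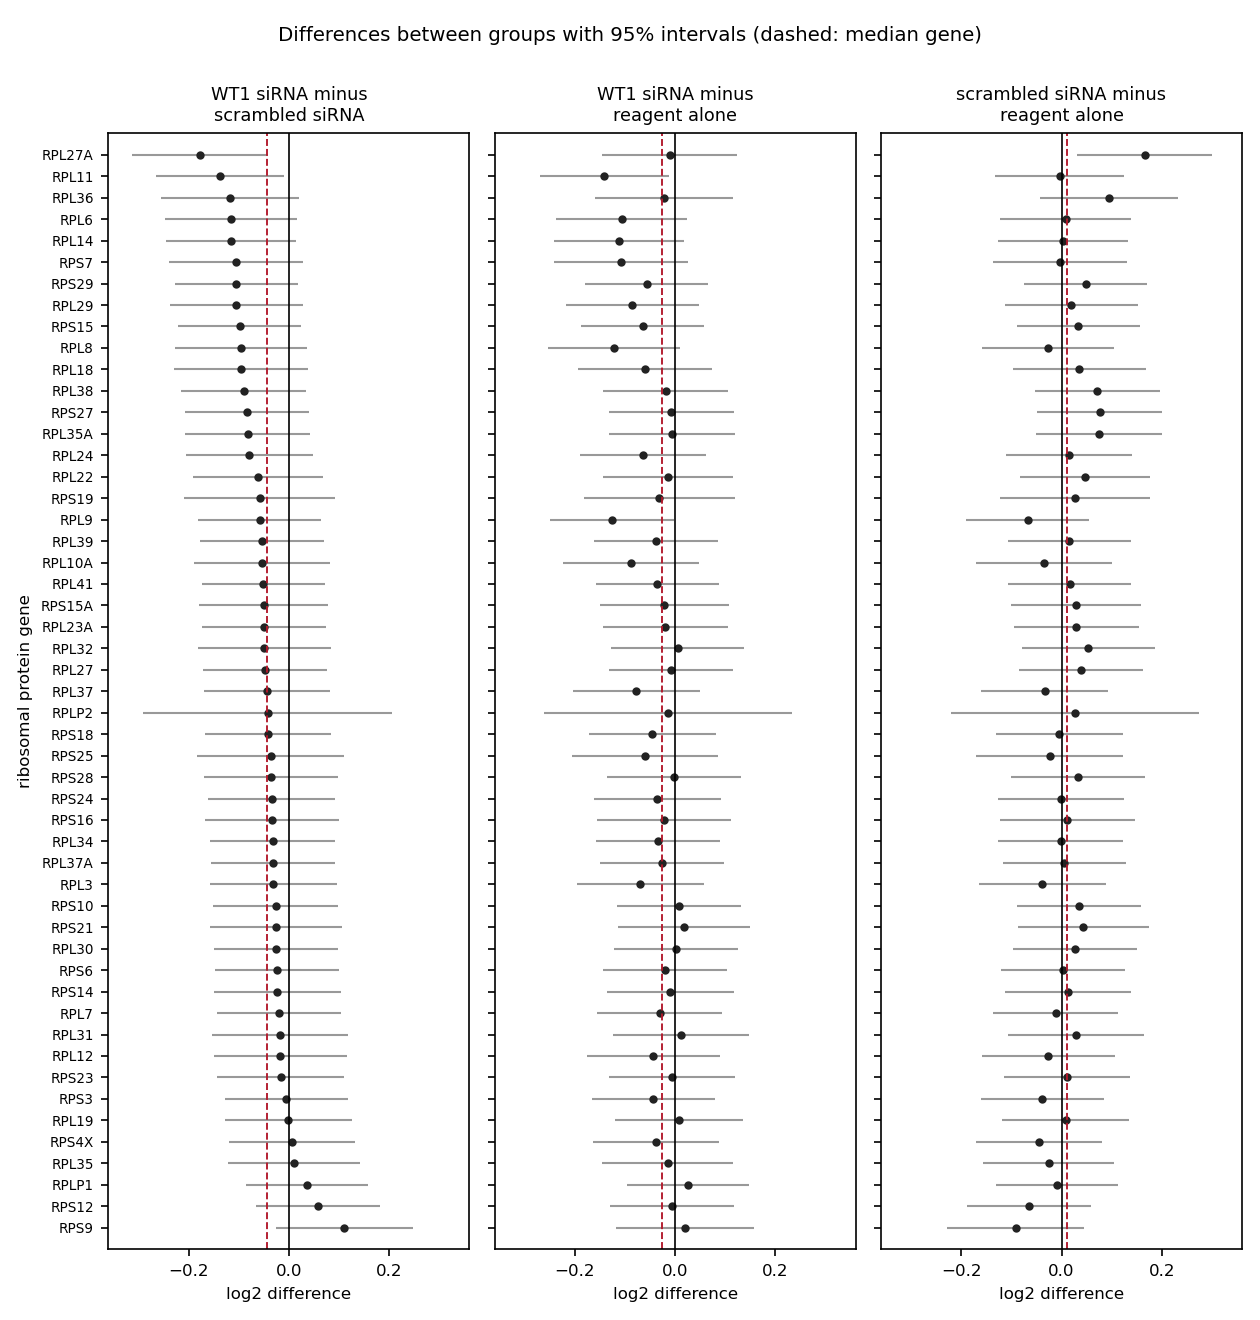
Log2 difference (x axis) of each of 51 ribosomal protein genes (y axis, ordered by the first comparison) for WT1 siRNA minus scrambled siRNA, WT1 siRNA minus reagent and scrambled siRNA minus reagent. Points are estimates, bars 95% intervals and dashed lines the median gene, at -0.044, -0.026 and 0.012. Most points lie left of 0 in the first and second panels, and nearly all bars cross 0.

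Against the reagent alone, the arrays with the WT1 siRNA again gave 0 calls among the 51 genes by limma, where 1.25% of all probe sets were called, 0.41% as higher and 0.837% as lower. At an unadjusted p under 0.05, 2 genes passed, RPL11 and RPL9, and the smallest adjusted p was 0.281. The comparison uses the same WT1 siRNA arrays as the one before, so their values are given side by side and not as a repeat. The median difference was -0.026, against 0.010 for all genes, and 43 of 51 genes lay below 0, against 46.1% of all genes. Medians within numbers 1, 2 and 3 were -0.064, -0.031 and 0.005. Within every number, 20 genes were lower and 1 higher, against 17.4% and 17.0% of all genes. The bounds of the 95% intervals reached from 83.0% to 117% of the reagent level.

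RPL11 read 12.82, 12.80 and 12.69 with the reagent alone, above all its values with the WT1 siRNA, and the difference was -0.14 (SE 0.057, adjusted p = 0.281). RPL9, a large-subunit protein, read 13.11, 13.08 and 12.97 with the WT1 siRNA and 13.25, 13.18 and 13.10 with the reagent. It was lower within each number, by differences of -0.145, -0.109 and -0.125, although the group ranges overlapped (mean -0.13, SE 0.055, adjusted p = 0.315). With the intensity trend in the prior variance RPL9 was called as lower (adjusted p = 0.0438, range over the alternatives 0.0438 to 1.00), and RPL11 was just short of it (0.0511). The groups did not overlap for 3 genes, RPL11, RPL6 and RPS7, all lower, against 5.88% of all genes in either direction. RPS7, of the small subunit, read 12.88, 12.94 and 13.02 with the WT1 siRNA and 13.06 on each reagent array. The other genes among the 10 with the smallest p were RPL8, RPL14, RPL10A, RPL29, RPL37 and RPL3, between -0.12 and -0.07.

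The scrambled siRNA against the reagent alone compares cultures with and without a non-targeting siRNA. In it, transfection of an siRNA and the scrambled sequence itself cannot be told apart. Again 0 of 51 genes were called by limma (1 at an unadjusted p under 0.05, smallest adjusted p 0.299), where 1.09% of all probe sets were called, 0.554% as higher and 0.536% as lower. The median gene differed by 0.012 and the median of all genes by 0.013. Above 0 lay 32 of the 51, against 6669 of all 11963 genes. Within every number 18 genes were higher and 7 lower, against 21.7% and 17.4% of all genes. RPL27A had the smallest p, with a difference of 0.17 (SE 0.060). RPL36 (0.09) and RPS9 (-0.09) followed, the genes that also varied most over the 9 arrays. RPL22, which also binds a small RNA of the Epstein-Barr virus, was the only 1 whose groups did not overlap, at 12.75, 12.72 and 12.75 against 12.68, 12.70 and 12.70 (5.68% of all genes did not overlap). The 95% intervals reached from 85.4% to 123% of the reagent level.

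Sorting the genes by role left the counts at 0 in all 3 group comparisons. Of the 18 genes listed for Diamond-Blackfan anaemia, an inherited failure of red cell formation, 13 were measured. They had medians of -0.059 against the scrambled siRNA and -0.015 against the reagent, and 12 and 11 of them lay below 0. The 3 measured stalk proteins RPLP1, RPLP2 and RPL12 had medians of -0.017 and -0.015. The 6 proteins at the exit tunnel and its rim had -0.034 and -0.015, and the 5 along the messenger path had -0.023 and -0.009. For 5 proteins with known tasks outside the ribosome, such as RPS3 in DNA repair and RPL38 in the translation of Hox messenger RNAs in mice, the medians were -0.024 and -0.021. All genes had -0.002 and 0.010. Split by the annotated start, the 32 genes with the pyrimidine motif at that base had medians of -0.036 and -0.022. The 13 without it there had -0.053 and -0.065, and the ranges overlapped. Several of these 13, RPL11, RPL19 and RPS7 among them, have the motif within 5 bases, so the split does not separate genes without it.

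**Figure D3:**
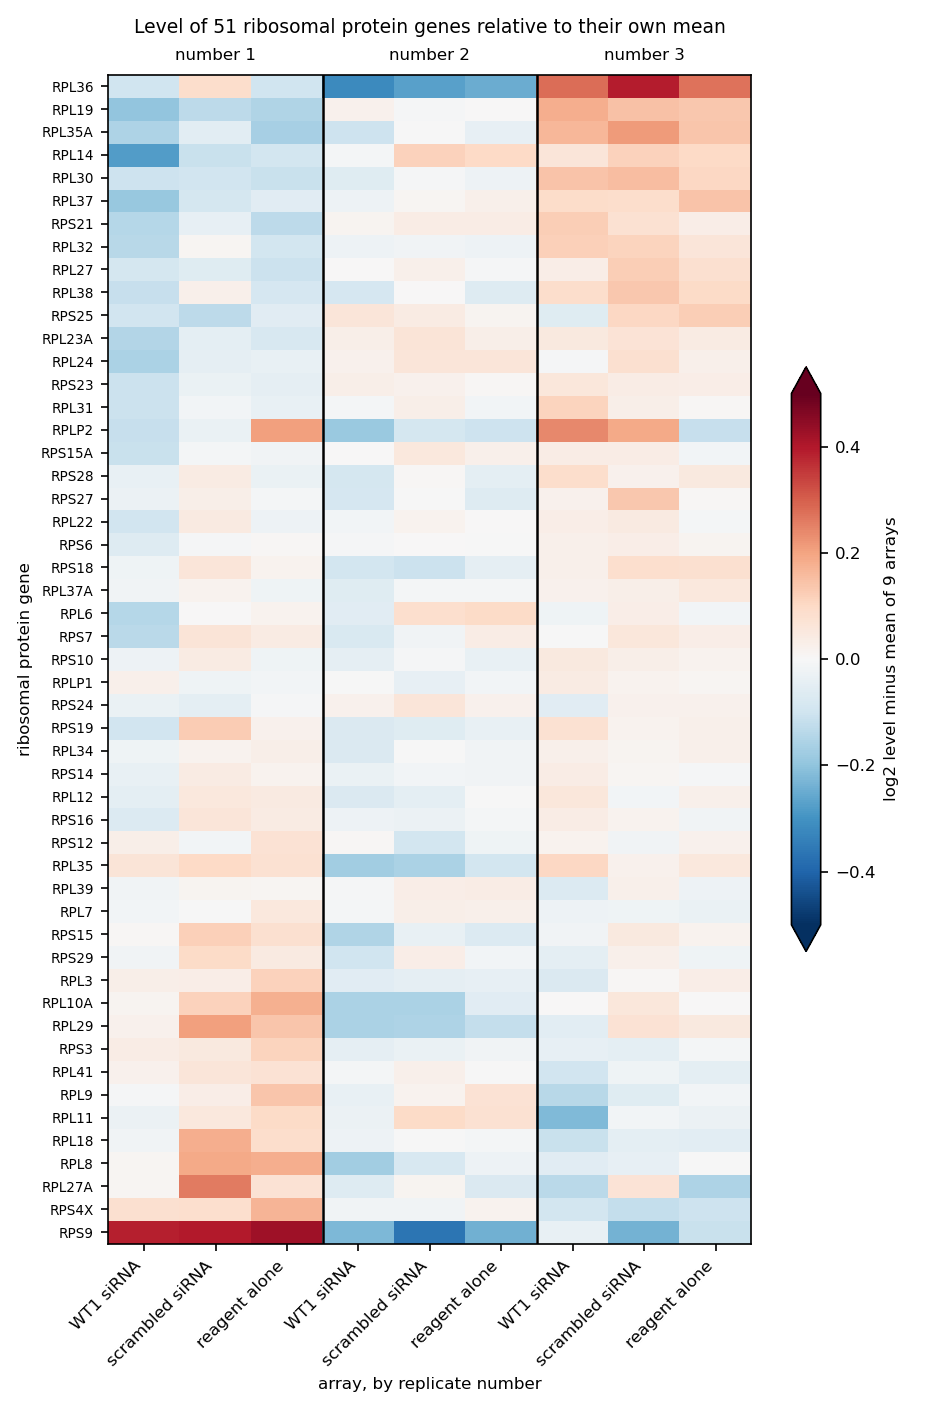
Log2 level of each of 51 ribosomal protein genes (rows, ordered by number 3 minus number 1) minus its mean over 9 arrays, by array (columns: WT1 siRNA, scrambled siRNA and reagent within numbers 1, 2 and 3), on a colour scale of log2 units from blue (lower) to red (higher). The 3 arrays of a number resemble each other in the top and bottom rows. RPS9 is high in number 1 on all 3 arrays and RPL36 in number 3.

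The differences that did pass lay between replicate numbers. The labels do not say what a number stands for, so they are differences between sets of 3 cultures, 1 of each group. Among all probe sets, 37.8% were called for number 2 against number 1 (20.9% higher, 16.9% lower), 37.8% for number 3 against number 1 (19.7% higher, 18.2% lower) and 21.9% for number 3 against number 2 (10.7% higher, 11.2% lower). Among the 51 ribosomal protein genes, number 2 had 2 higher and 7 lower than number 1, and number 3 had 10 higher and 3 lower than number 1. Number 3 had 3 higher and 0 lower than number 2 (11 in either direction at an unadjusted p under 0.05). In this fit these are smaller shares in total than over all probe sets. The 10 genes higher in number 3 than in number 1 come to about the share of all probe sets. With an intensity trend in the prior variance, the total shares in number 3 against numbers 1 and 2 were larger than over all probe sets. That in number 2 against number 1 was then close to it. Median differences were -0.028, 0.033 and 0.046, against -0.016, -0.020 and -0.026 for all genes.

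RPS9, a small-subunit protein at the entry of the messenger channel, had the greatest difference. On the number 2 arrays it read 11.64 with the WT1 siRNA, 11.50 with the scrambled siRNA and 11.63 with the reagent, against 12.26, 12.26 and 12.29 on the number 1 arrays. The 3 arrays of number 1 thus stood apart from the rest, and the number 3 arrays read 11.83, 11.63 and 11.75. RPS9 fell by 0.68 in number 2 (1.60-fold, SE 0.061, adjusted p = 5.59e-05) and by 0.53 in number 3 (adjusted p = 0.000174), both against number 1. The dimmer probe set of the gene was also called as lower, by -0.34 and -0.28. RPS9 showed no overlap of numbers in either of these comparisons, while its WT1 siRNA and scrambled groups overlapped.

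RPL36, a small large-subunit protein, took another course. It read 12.11, 12.23 and 12.11 on the number 3 arrays, against 11.52, 11.57 and 11.59 on the number 2 arrays and 11.74, 11.93 and 11.74 on the number 1 arrays. The 3 numbers did not overlap, with number 3 highest and number 2 lowest in every group. It rose by 0.59 in number 3 against number 2 (1.51-fold, adjusted p = 0.000252) and by 0.35 against number 1 (adjusted p = 0.00191), and fell by 0.24 in number 2 against number 1 (adjusted p = 0.0123). RPL36 has only this probe set.

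RPL35A, 1 of the Diamond-Blackfan genes, read 12.53, 12.57 and 12.50 on the number 3 arrays, against 12.20, 12.31 and 12.19 on the number 1 arrays, and rose by 0.30 (adjusted p = 0.00281). Its rise of 0.22 against number 2 passed too (adjusted p = 0.0201), but the mean over its 3 probe sets gave -0.03 there. RPL19, part of a bridge between the subunits, read 13.38, 13.35 and 13.33 on the number 3 arrays and 13.00, 13.07 and 13.05 on the number 1 arrays, a rise of 0.31 (adjusted p = 0.00219). It also rose by 0.17 in number 2 against number 1. RPL14 rose by 0.23 in number 2 (adjusted p = 0.0121) and by 0.25 in number 3 (adjusted p = 0.0077), both against number 1. For RPL14 a second probe set of similar brightness read -0.03 in number 2 and 0.15 in number 3 and was called in neither.

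Further genes that rose in number 3 against number 1 were RPL30 (0.24), RPL37 (0.22), RPS21 (0.18), RPL32 (0.17), RPL27 (0.17) and RPL38 (0.16). RPS4X, the X-linked form of a protein with a copy on the Y chromosome, fell by 0.22 and RPL27A by 0.19. In number 2 against number 1, RPL29 (-0.27), RPL10A of the L1 stalk (-0.23), RPL35 (-0.22), RPL8 near the peptidyl transferase centre (-0.22) and RPS15 at the decoding site (-0.15) fell. RPL35 rose by 0.20 in number 3 against number 2. Large-subunit genes made up 7 of the 9 calls in number 2 and 10 of the 13 in number 3 against number 1, and all 3 in number 3 against number 2. They are 31 of the 51 genes.

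**Figure D4:**
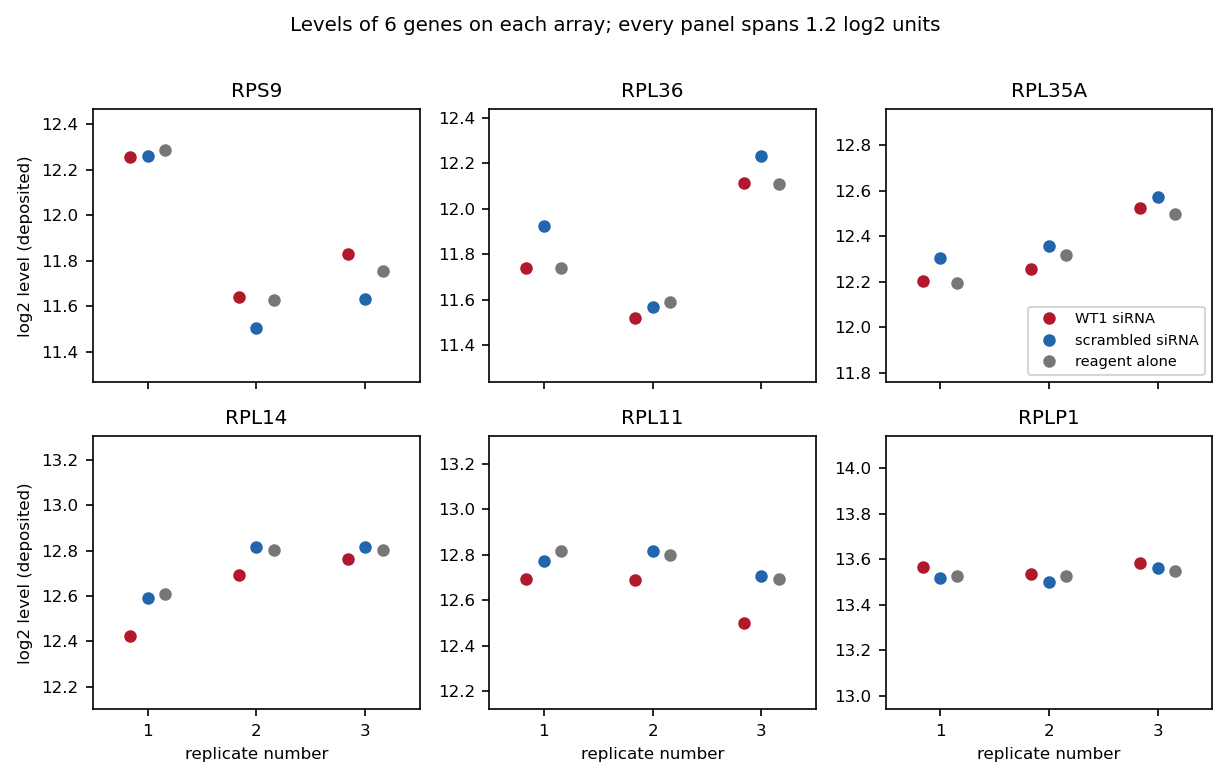
Deposited log2 level (y axis, panels of equal span) of RPS9, RPL36, RPL35A, RPL14, RPL11 and RPLP1 on each array, by replicate number (x axis) and group (red WT1 siRNA, blue scrambled siRNA, grey reagent). Points are single arrays. RPL36 separates by all 3 numbers, RPS9 is highest in number 1 and RPL35A in number 3 on every array, RPL11 lies lowest with the WT1 siRNA within each number, and RPLP1 is flat.

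The control probe sets for RNA quality moved with the replicate number. The 3′ minus 5′ signal of GAPDH was 0.157 to 0.184 in number 2 and 0.0953 to 0.106 in number 3, against -0.0249 to -0.00564 in number 1. That of ACTB was 0.554 to 0.677 in number 2 and 0.260 to 0.505 in number 3, against 0.0507 to 0.0887 in number 1. Within numbers 1, 2 and 3, GAPDH was higher with the WT1 siRNA, by 0.00408, 0.0185 and 0.0103 than with the scrambled siRNA and by 0.0193, 0.0263 and 0.00667 than with the reagent. ACTB differed by 0.0266, -0.123 and -0.200 between WT1 and scrambled siRNA and by -0.0114, -0.0628 and -0.245 between WT1 siRNA and reagent. Of the 16 markers of other cell types, 1 was called as higher and 1 as lower in number 2 against number 1, 3 and 3 in number 3 against number 1, and 2 and 0 in number 3 against number 2. Of the 7 glioma markers, 0 were higher and 4 lower in number 2 against number 1. In number 3, 2 and 2 were so against number 1, and 3 and 0 against number 2. These comparisons called 37.8%, 37.8% and 21.9% of all probe sets. Differences of the 7 reached -1.38 in the first and 2.60 in the last. None of the 7 was called between groups. The part of RNA quality and of these markers in the differences between numbers or groups was not tested.

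Probe sets of 1 gene did not always move together. RPL37A, whose bright probe set (mean 13.7) differed by 0.04 in number 3 against number 1, had a probe set of mean level 8.06 that rose by 0.84 (adjusted p = 0.000726). Another of its probe sets, at 6.90, rose by 0.44 in number 2 against number 1 and fell by 0.43 in number 3 against number 2. RPL38 was called as higher by 0.16 on its bright probe set in number 3 against number 1 and as lower by -0.43 on one at 7.87. RPS6, among the steadiest genes on its bright probe set, had a probe set at 4.66 that fell by 0.46 in number 2 against number 1. Of the 89 probe sets, 6 were higher and 16 lower in number 2 against number 1 (20.9% and 16.9% of all probe sets). In number 3, 13 and 6 were so against number 1 (19.7% and 18.2%), and 8 and 1 against number 2 (10.7% and 11.2%). Of the 51 probe sets used, 15 (29.4%) have an identifier ending in _x_at, which marks probes shared with other sequences, against 7.43% over all genes. Ribosomal protein genes have many processed pseudogenes, so such signals cannot be assigned to the gene alone.

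The genes that build, use and regulate the ribosome were set beside it. Of 48 listed genes of ribosome biogenesis, 36 were measured, and 4 fell with the WT1 siRNA against the scrambled siRNA while 0 rose, where 1.94% of all probe sets were lower and 1.33% higher. RRN3, the factor that brings RNA polymerase I to ribosomal DNA, read 8.68, 9.33 and 8.79 with the WT1 siRNA, against 9.03, 9.84 and 9.46 with the scrambled siRNA. It fell by 0.51 (adjusted p = 0.00762), and by 0.44 against the reagent (adjusted p = 0.0245), where it was the only 1 of the 36 called. NOP16, which acts in large-subunit assembly, fell by 0.57 (adjusted p = 0.0173) and its groups did not overlap. POLR1D, a subunit shared by RNA polymerases I and III, fell by 0.29 and GTPBP4, a GTPase of the large-subunit precursor, by 0.29. The list's median was -0.096 against the scrambled siRNA and -0.035 against the reagent, with 28 and 25 of 36 below 0, against 50.6% and 46.1% of all genes. Between replicate numbers 23 of the 36 rose and 0 fell in number 2 against number 1 (20.9% and 16.9% of all probe sets). In number 3, 10 rose and 2 fell against number 1 (19.7% and 18.2%), and 2 rose and 17 fell against number 2 (10.7% and 11.2%).

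Other parts of the translation apparatus gave few calls between groups. Of 16 measured genes among 20 other TOP messenger RNAs, 0 were called by limma in any group comparison (smallest adjusted p 0.465, 0.278 and 0.333). The medians lay between -0.012 and -0.003. Over all probe sets, 3.27%, 1.25% and 1.09% were called. Of the 16, 4 were higher and 0 lower in number 2 against number 1 (20.9% and 16.9% of all probe sets). In number 3, 4 and 0 were so against number 1 (19.7% and 18.2%), and 1 and 1 against number 2 (10.7% and 11.2%). Their median differences between numbers were 0.139, 0.092 and -0.019 in that order. Of 14 measured initiation and release factors, 0 were called between groups. EIF1AX came nearest, at -0.26 against the scrambled siRNA (adjusted p = 0.0509). Of the 14, 6 were higher and 2 lower in number 2 against number 1 (20.9% and 16.9% of all probe sets). In number 3, 5 and 2 were so against number 1 (19.7% and 18.2%), and 1 and 5 against number 2 (10.7% and 11.2%). Among 11 measured genes of the mTOR pathway and TOP control, DDIT4, an inhibitor of mTOR complex 1, rose by 0.54 against the scrambled siRNA (adjusted p = 0.0208). It differed by 0.12 from the reagent (adjusted p = 0.591). In number 3 against number 1, 8 of these 11 genes were higher and 0 lower, against 19.7% and 18.2% of all probe sets. In number 2 against number 1, 4 were higher and 1 lower (20.9% and 16.9% of all probe sets). The same counts held in number 3 against number 2 (10.7% and 11.2%). LARP1 read 10.62, 11.08 and 11.01 with the WT1 siRNA, against 10.97, 11.31 and 11.20 with the scrambled siRNA, a difference of -0.26 that was not called (adjusted p = 0.0574). Of 51 mitochondrial ribosomal protein genes, MRPL33 (-0.35), MRPL40 (-0.32) and MRPL48 (-0.29) fell against the scrambled siRNA and 0 rose. Over all probe sets, 1.94% were lower and 1.33% higher there. Against the reagent 0 were called, where 1.25% of all probe sets were. The medians against the scrambled siRNA and the reagent were -0.070 and -0.063. Of these 51, 15 were higher and 7 lower in number 2 against number 1 (20.9% and 16.9% of all probe sets). In number 3, 19 and 4 were so against number 1 (19.7% and 18.2%), and 13 and 8 against number 2 (10.7% and 11.2%). Of the 3 ribosomal proteins with other names, FAU was measured, at -0.03 against the scrambled siRNA and -0.04 against the reagent.

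Among 6 measured paralogs of ribosomal proteins, RPS27L differed most. It is a close relative of RPS27 and is known as a target of p53. RPS27L read 11.56, 11.72 and 11.84 with the WT1 siRNA, 11.10, 11.24 and 11.39 with the scrambled siRNA and 11.81, 11.89 and 11.84 with the reagent. The scrambled group lay below both others on every array. RPS27L rose by 0.46 with the WT1 siRNA against the scrambled siRNA (adjusted p = 0.00829) and fell by 0.61 with the scrambled siRNA against the reagent (adjusted p = 0.00508). It was not called with the WT1 siRNA against the reagent (-0.14, adjusted p = 0.359). RPS27 itself read 13.32, 13.26 and 13.37 with the WT1 siRNA, 13.38, 13.34 and 13.48 with the scrambled siRNA and 13.34, 13.28 and 13.35 with the reagent, and was called in none of these comparisons.

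The calls among these neighbouring genes depended on the replicate number and on single arrays. Without the number in the fit, none of them was called (adjusted p of 0.429 to 1.00). When each array or number was left out in turn, RRN3 was called against the scrambled siRNA in 10 of 12 fits, RPS27L in 9, NOP16 and DDIT4 in 7, MRPL33 in 5, MRPL48 in 3, and GTPBP4, POLR1D and MRPL40 in 2. RRN3 was called against the reagent in 4 of 12, and RPS27L between the scrambled siRNA and the reagent in 9. All kept their direction. EIF1AX and LARP1 were called as lower against the scrambled siRNA in 5 and 3 of 7 alternatives that left no array out (adjusted p of 0.00578 and 0.00809 with the intensity trend), and over all alternatives their adjusted p ran up to 1.00.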

How the data were processed

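RNA from 9 cultures was hybridised to Affymetrix arrays. Per the submitters' processing notes the authors used RMA, and the deposited values are log2 levels per probe set. The RMA software, its version and the chip definition were not given in the sources used here. Symbols came from the platform annotation. The 62 control probe sets were left out of the tests, and 22215 remained, of which 19064 had 1 symbol, 1043 several and 2108 none. The deposited table had 0 missing values.

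Models were fitted with limma 3.58.1 in R 4.3.3 (group plus replicate number, all 9 arrays, all probe sets, two-sided, Benjamini-Hochberg over 22215). The numbers were used as a block because the groups were to be compared within numbers, which they share in their titles. Arrays with the same number in different groups deviated together from their group means (9 pairs, correlations of 0.647 to 0.849). The 18 other pairs had -0.611 to -0.031. Deviations from a group mean cancel out within the group, so these are drawn negative by construction and are no separate evidence. The titles give group and number, and the series calls the arrays biological triplicates. The p-values measure the spread left within numbers, which limma draws toward that of all probe sets. A very steady gene thus has a larger standard error than its own arrays alone would give. Nothing in the labels says whether numbers are separate days. The number of arrays limits the precision.

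The genes, lists and tests were chosen with earlier results of these data known. Named were WT1, every gene called, the 10 smallest p per comparison, genes whose groups did not overlap, the 5 greatest and 5 smallest SD, genes whose probe sets disagreed, and up to 4 per list by p. Alternatives were no replicate block, each array or number left out, 2 groups only, median centring, a filter below the 25th percentile, an intensity trend, array weights and other choices of probe set. The model was tested on simulated data. Sequences are from RefSeq. Figures were drawn with matplotlib 3.10.9.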

Additional observations from a re-analysis of the deposited data

How the results depend on the processing

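No group comparison gave a call among the 51 genes under any alternative, except with the intensity trend, which called 1 gene against the scrambled siRNA (RPL11) and 1 against the reagent (RPL9). Without the replicate block the counts were also 0 and the medians the same (-0.0439, -0.0261 and 0.0116), since each number is in every group, but the calls over all probe sets dropped to 4, 0 and 1, against 726, 277 and 242 with the block, and WT1 was not called (adjusted p of 0.672, 0.394 and 1.00). WT1 also lost its call without number 2 (adjusted p 0.0795 against the scrambled siRNA and 0.0762 against the reagent). The block changed no call of a ribosomal protein gene between groups. Leaving out arrays gave 2 to 706, 0 to 465 and 3 to 387 calls over all probe sets. The trend gave 552 and 470 calls against the reagent for the WT1 and the scrambled siRNA, array weights 1140, 643 and 782, and fits of 2 groups only 390, 3 and 535. The median for WT1 siRNA stayed below 0, at -0.0627 to -0.0281 against the scrambled siRNA and -0.0544 to -0.0111 against the reagent. For scrambled siRNA against reagent the median was -0.00168 after centring, 0.0196 over every probe set and 0.000836 to 0.0237 with arrays left out. For number 2 against number 1, the calls were 19 with the trend, 22 over every probe set and 2 to 9 with arrays left out, and the median was 0.00818 after centring, -0.0453 over the mean of a gene's probe sets and -0.0407 to -0.0126 with arrays left out. For number 3 against number 1, the calls were 22 with the trend and 7 to 11 with arrays left out. For number 3 against number 2, they were 17 with the trend, 7 with array weights, 5 with the mean over probe sets, 9 over every probe set and 1 to 3 with arrays left out, and the median was 0.0117 after centring. Over all 22215 probe sets, the trend gave 8555 calls for number 2 against 1, 8739 for number 3 against 1 and 5237 for number 3 against 2. The share of the 51 genes called was then no longer the smaller for number 3 against either other number. The low counts came without the scrambled array of number 2 (2 for number 2 against 1), without the reagent array of number 1 or the scrambled or reagent array of number 3 (7 each for number 3 against 1), and without any array of number 2 or the WT1 or scrambled array of number 3 (1 each for number 3 against 2). The sign turned for RPS12 (0.00414, scrambled siRNA against reagent, mean over probe sets), RPL14 (-0.0306, number 2 against 1, without _x_at probe sets), RPL38 (-0.128 with the mean and -0.120 without _x_at, number 3 against 1) and RPL35A (-0.0309, number 3 against 2, mean). Of 1142 values of WT1 and the named ribosomal protein genes under the alternatives, 1014 kept direction and side of the threshold, as did 1301 of 1425 of the neighbouring genes. The causes were not tested. Whether signal near the top of the scale limited the differences of bright probe sets was not tested either.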
